A study of Mus musculus with 8 samples.

Results

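The comparison described here set embryonic stem (ES) cells that had been treated with a Hedgehog agonist and sorted as RAX-negative against a culture that had received a Wnt inhibitor alone. It rests on 2 of the 8 arrays of the study, 1 for each side. They were chosen by the group names in the sample labels and by no measured value, though earlier results of these data were known. The SAG RAX-negative cells came from K/l-EB5 ES cells, a male line on a 129/Ola background with a GFP reporter of the Rax gene. They were cultured for 10 days in vitro (DIV), treated from 3 DIV with 5 μM of the Wnt inhibitor IWR-1-endo and, 12 h later, with 100 nM of SAG, a small molecule that activates Smoothened, and the cells without Rax::GFP were then collected on a cell sorter. The Wi control came from E14Tg2a, another male 129/Ola ES line, cultured for 10 DIV with 5 μM of IWR-1-endo from 3 DIV, with no SAG, and for this group the labels name no sort. Both cultures thus shared the Wnt inhibitor, the medium and the age, while the cell line, the factor, the sort and the array slide differed together, and what each contributed cannot be told apart. RNA from 3 sets of experiments was pooled for each group before labelling.

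The study profiled sorted ES cells after the inhibitor with either factor and set them beside embryonic tissue. Its other arrays held the RAX-positive cells of the same SAG treatment, RAX-negative and RAX-positive cells after 10 ng/ml of activin A, and E12.5 mouse cortex, diencephalon/hypothalamus and eye. With 1 pooled array a group there was no replicate, so no p-value is given, and a gene was called by size alone. In such bulk RNA, fewer cells of a type and less RNA per cell cannot be told apart.

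In the embryo, Sonic hedgehog secreted below the neural tube sets ventral identity by changing the balance of Gli activators and repressors. In the forebrain this pathway is required for the hypothalamus and the ventral telencephalon, while Gli3 repressor and Wnt signals maintain the cortex dorsally. Rax marks the eye field and the early hypothalamus, and Nkx2-1 marks the ventral hypothalamus and the medial ganglionic eminence.

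Promoters of 4 transcription factor genes with large differences are shown, because the neighbouring homeobox genes Hmx3 and Hmx2, with probes 11.7 kb apart on chromosome 7, were both among the genes most above the control, as was Nkx2-1, and the neuronal factor Neurod2 was among those most below it. The 250 bases before the first RefSeq start are given 5′ to 3′ on GRCm38.p6, at chr12:56536909-56537158 on the minus strand for Nkx2-1, chr7:131542713-131542962 on the plus strand for Hmx3, chr7:131548507-131548756 on the plus strand for Hmx2 and chr11:98329646-98329895 on the minus strand for Neurod2. Capitals mark GGGTGG, the inner letters of the Gli site, or CAGATG, a site of basic helix-loop-helix factors, on either strand.
Nkx2-1: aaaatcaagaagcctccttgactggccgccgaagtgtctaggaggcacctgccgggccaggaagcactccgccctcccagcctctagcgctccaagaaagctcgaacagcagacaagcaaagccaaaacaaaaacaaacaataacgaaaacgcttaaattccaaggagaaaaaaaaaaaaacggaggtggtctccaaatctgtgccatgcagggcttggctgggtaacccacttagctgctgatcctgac
Hmx3: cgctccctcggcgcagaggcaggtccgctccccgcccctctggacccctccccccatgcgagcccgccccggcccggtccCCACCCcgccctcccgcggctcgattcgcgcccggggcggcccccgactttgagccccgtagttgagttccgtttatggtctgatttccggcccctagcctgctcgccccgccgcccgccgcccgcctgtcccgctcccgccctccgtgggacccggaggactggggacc
Hmx2: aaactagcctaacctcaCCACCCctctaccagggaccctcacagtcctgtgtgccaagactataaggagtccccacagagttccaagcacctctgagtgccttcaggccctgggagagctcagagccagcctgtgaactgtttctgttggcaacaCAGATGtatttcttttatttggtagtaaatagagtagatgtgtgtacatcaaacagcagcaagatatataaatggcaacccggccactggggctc
Neurod2: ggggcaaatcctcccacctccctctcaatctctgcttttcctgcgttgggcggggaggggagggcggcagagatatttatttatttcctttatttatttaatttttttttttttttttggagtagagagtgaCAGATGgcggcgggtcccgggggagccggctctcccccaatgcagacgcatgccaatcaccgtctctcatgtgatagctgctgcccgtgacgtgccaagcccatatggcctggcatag
The 9 letters TGGGTGGTC, the core of the Gli site, which contain GGGTGG, were searched on both strands of all 300-base promoters of the reference. They stood in 83 of 32851 promoters, or 0.253%, and in 0 of 17 promoters of the Hedgehog target list described below. GGGTGG stood in 31.5% of all promoters, in 8 of those 17, in 12 of 33 promoters of the hypothalamus list and in 15 of 36 of the dorsal telencephalon list. CAGATG stood in 17.2% of all promoters, and in 5 of 17, 4 of 33 and 6 of 36 promoters of the same 3 lists. A match is a description of letters, and the absence of one says only that these letters are not in the window.

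Levels are given as the log2 of the background-subtracted signal over the 75th percentile of the array, so that 0 is the level of the 75th percentile, and they are compared for the same probe only. A gene was called higher or lower when the difference was at least 1 (a change of 2-fold) and the brighter array was well above background by the scanner's own test. Where the dimmer array was not well above background, the change is given as at least N-fold, against the higher of the probe's own level and the lowest level well above background on that array, -5.62 for the SAG RAX-negative array and -7.08 for the Wi control. Such a bound holds for this background handling only, and several genes had smaller changes under another. The scanner's reading error of a difference had a median of 0.20, or 1.15-fold, which covers the reading of 1 spot and not the spread of cultures. On the SAG RAX-negative array 66.4% of the spots were well above background, against 67.5% on the Wi control array, and 0 spots were saturated on either. The slope of the spike-in controls was 0.850 on the SAG RAX-negative array, outside the range the scanner software accepts, against 0.997 on the Wi control array.

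An area of the SAG RAX-negative array carried raised local background. There 3687 spots, 6.22% of those measured, lay above 42 units, or 2 times the median of that array, with 413.5 units at the highest, while the Wi control array had 0 such spots. Of the 2042 genes read from that area, 31.7% were called higher and 10.97% lower, against 15.99% and 17.9% of the 24485 genes read outside it. Genes read in that area are therefore marked as such wherever they are named. Of the genes most above the control, Sprr2e, Cyp3a57, Olfr600, Cyp2c65, Olfr1160 and Gabrr3 were read there, at signals of 985 units or less, and they are not described further. That limit was not part of the rule for naming genes. Hmx2 and Dnah10, read there at 1073 and 1120 units, are described below.

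**Figure D1:**
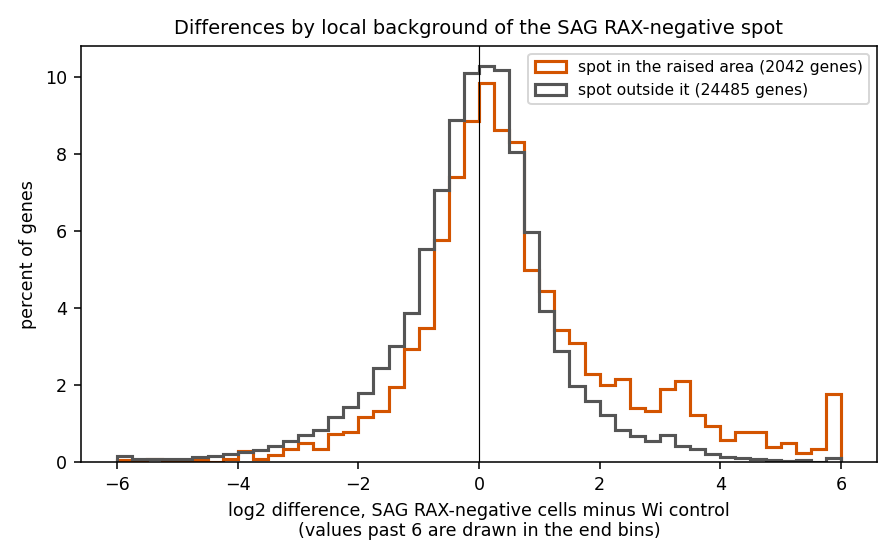
Percent of genes (vertical axis) by log2 difference, SAG RAX-negative cells minus Wi control (horizontal axis), for genes read from spots inside and outside the area of raised local background on the SAG RAX-negative array. The curve for the 2042 genes inside has a longer tail to the right than that for the 24485 genes outside, and their medians were 0.34 and 0.01.

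Of the 26527 genes detected, 4564 were called higher in SAG RAX-negative cells (17.2%) and 4604 lower (17.4%), with a median difference of 0.04. When a gene had to pass the background test in both samples, 22838 genes were left, of which 2982 were higher and 3220 lower, and 39 were at least 16-fold higher and 105 at least 16-fold lower. Without the spots of raised local background, 4047 were higher and 4465 lower. Against these shares, most genes of the hypothalamus and floor plate lists were higher, as were 13 of 26 of the ventral telencephalon list, and most genes of the cortex, Wnt target and pluripotency lists were lower. The lists were chosen with earlier results of these data known, so their counts are a description and not a test.

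**Figure D2:**
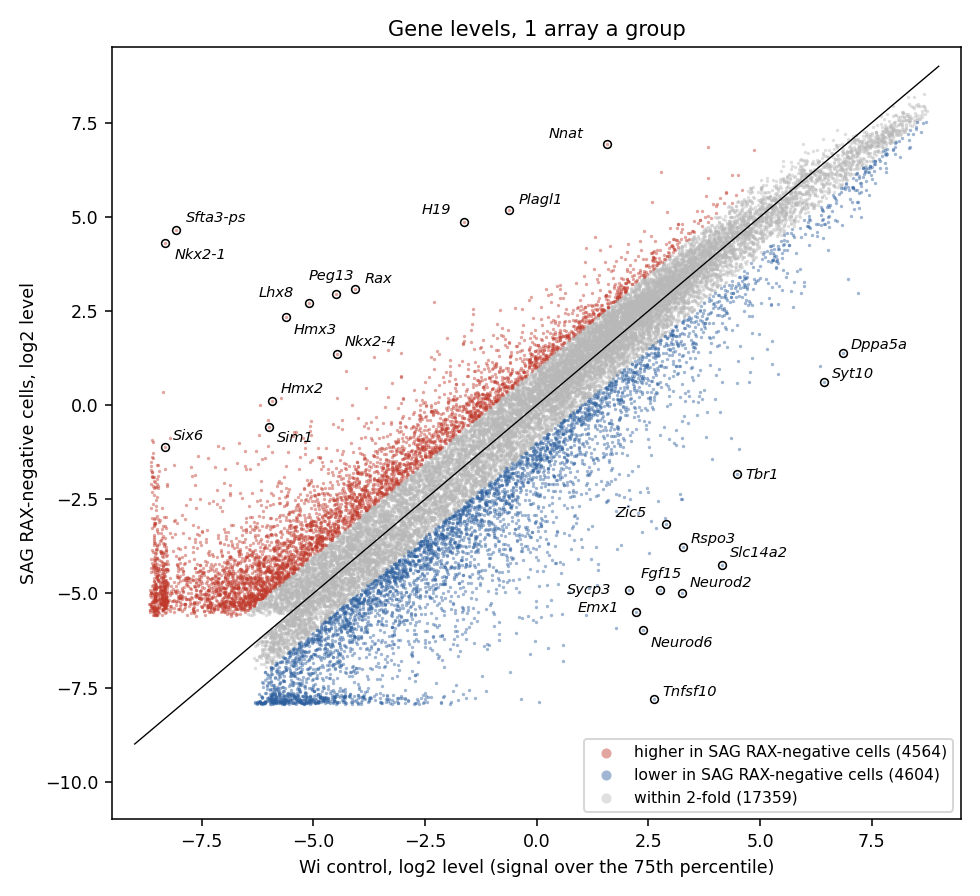
Log2 level of each detected gene in SAG RAX-negative cells (vertical axis) against the Wi control (horizontal axis), 1 array each, with the line of equal level. Nkx2-1 and its neighbour Sfta3-ps lie furthest above the line, and Tnfsf10, Slc14a2, Neurod6 and Neurod2 are among the genes furthest below it.

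Genes that pattern the hypothalamus were among the largest differences upward, as were the imprinted genes Peg13, H19, Plagl1 and Nnat, given further on. Nkx2-1, the homeobox factor of the ventral forebrain, had a level of 4.30 in SAG RAX-negative cells, against -8.33 and not well above background in the Wi control, a change of at least 2669-fold. Its probe lies at chr12:57633119-57633178 (mm9, the build of the array), and 1 of its 10 spots lay in the raised area. Sfta3-ps, a noncoding transcript beside Nkx2-1 with a probe 41.5 kb away, had 4.66 in SAG RAX-negative cells, against -8.07 in the Wi control, at least 3428-fold. Neither was detected above background in the control, and the size of both differences depends on how the background was handled. The log2 difference of Nkx2-1 was 12.63, against 9.71 in the authors' values and 7.88 with normexp background correction, and that of Sfta3-ps 12.73, 9.95 and 8.21 in the same order. Both were also above the Wi control in the other sorted cells, including those given activin and no SAG. Nkx2-1 had 4.82 in SAG RAX-positive, -0.65 in activin RAX-negative and 1.34 in activin RAX-positive cells. Sfta3-ps had 4.295, -0.76 and 0.08 in the same order.

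Hmx3, a homeobox factor of the hypothalamus and inner ear, had 2.35 in SAG RAX-negative cells and -5.61 in the Wi control, 249-fold higher. Its neighbour Hmx2 had 0.12 in SAG RAX-negative cells and -5.92 in the Wi control, 65.7-fold higher, from a spot in the raised area with a signal of 1073 units over a local background of 63. Nkx2-4, a relative of Nkx2-1, had 1.36 in SAG RAX-negative cells and -4.48 in the Wi control, 57.4-fold higher. The sizes of these 3 depend on the background handling. The log2 differences of Hmx3, Hmx2 and Nkx2-4 were 7.96, 6.04 and 5.84, against 5.71, 3.64 and 4.36 with normexp background correction. Foxd2, a forkhead factor, was 33.2-fold higher and Foxd1, which has a role in the ventral forebrain and optic stalk, 13.8-fold higher. Fezf1, a zinc finger factor of the rostral forebrain, was 7.90-fold higher, and Dbx1, of hypothalamic and other progenitors, 7.03-fold higher.

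Factors of hypothalamic neurons were also above the control. Sim1, which with Otp specifies neurons of the paraventricular nucleus, had -0.58 in SAG RAX-negative cells and -5.99 in the Wi control, 42.6-fold higher. Otp was 4.08-fold higher but dim, at -3.75 in SAG RAX-negative cells and -5.78 in the Wi control. With normexp background correction the log2 difference of Sim1 was 3.03, against 5.41, and that of Otp 0.94, against 2.03 and thus within 2-fold. Nr5a1, the marker of the ventromedial nucleus, was 5.79-fold higher. Foxb1, of the mammillary area, was 5.92-fold higher, and Isl1, of arcuate and other neurons, 6.97-fold higher. Lhx8, a LIM factor of basal forebrain cholinergic neurons that is also expressed in the hypothalamus, had 2.71 in SAG RAX-negative cells and -5.10 in the Wi control, 224-fold higher. Its log2 difference of 7.81 was 5.78 with normexp background correction. In SAG RAX-positive, activin RAX-negative and activin RAX-positive cells Lhx8 had -1.53, -1.64 and -4.15.

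In the list of 37 hypothalamic factors, all 37 were detected, and 24 were called higher and 4 lower, with a median difference of 2.57. The 4 lower were Barhl2, Barhl1, Sim2 and Lmx1b, at differences of -2.46 to -1.02, and the second probe of Sim2 differed by 3.87. Six3, a factor shared by the eye field and the ventral forebrain, differed by 0.89 and was not called, and Nkx2-2, a Hedgehog-responsive factor, by 0.68, while their second probes differed by 2.55 and 1.16. Without the raised area the counts were 22 higher and 4 lower of 35. The median of the list was between 2.15 and 2.63 under each other background correction, scaling and set of probes tried.

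The hormones and neuropeptides of the hypothalamus did not follow the patterning factors. Of 21 detected, 4 were higher and 3 lower, with a median of 0.59. Trh, the thyrotropin-releasing hormone, had -0.87 in SAG RAX-negative cells and 4.35 in the Wi control, and was thus 37.2-fold lower. Oxt, oxytocin, was 5.17-fold higher and Pmch, the melanin-concentrating hormone, 2.67-fold higher, both at dim levels of -2.39 and -2.69 in SAG RAX-negative cells. Pomc, the precursor of melanocortins, differed by -0.49 and was not called.

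The label of the sort was checked against Rax itself. Rax had a level of 3.08 in the SAG RAX-negative cells, against 5.49 in the SAG RAX-positive cells and 2.30 and 5.45 in the activin RAX-negative and RAX-positive cells, while the Wi control had -4.07. The cells sorted as negative therefore had less Rax RNA than the positive cells of the same treatment, but 143-fold more than the Wi control, and a level close to that of the E12.5 diencephalon/hypothalamus at 3.14. The Rax spot lay in the raised area, with a signal of 8343 units over a local background of 69. Six6, a factor of the eye field, pituitary and hypothalamus, had -1.12 in SAG RAX-negative cells and -8.32, not well above background, in the Wi control, a change of at least 62.1-fold. Its log2 difference of 7.19 was 4.02 in the authors' values and 2.74 with normexp background correction. Six6 had 1.19, -1.55 and 2.15 in SAG RAX-positive, activin RAX-negative and activin RAX-positive cells.

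Most other genes of the eye field did not follow Rax and Six6. Of 20 detected, 3 were higher (Rax, Six6 and Aldh1a1) and 8 lower, with a median of -0.61. Pax6, required for the eye and for dorsal telencephalic progenitors, had -5.34 in SAG RAX-negative cells and 0.24 in the Wi control, 47.9-fold lower. Lhx2, a LIM factor of eye field and cortex, was 3.22-fold lower. Sox2, of neural progenitors in general, differed by 0.15.

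**Figure D3:**
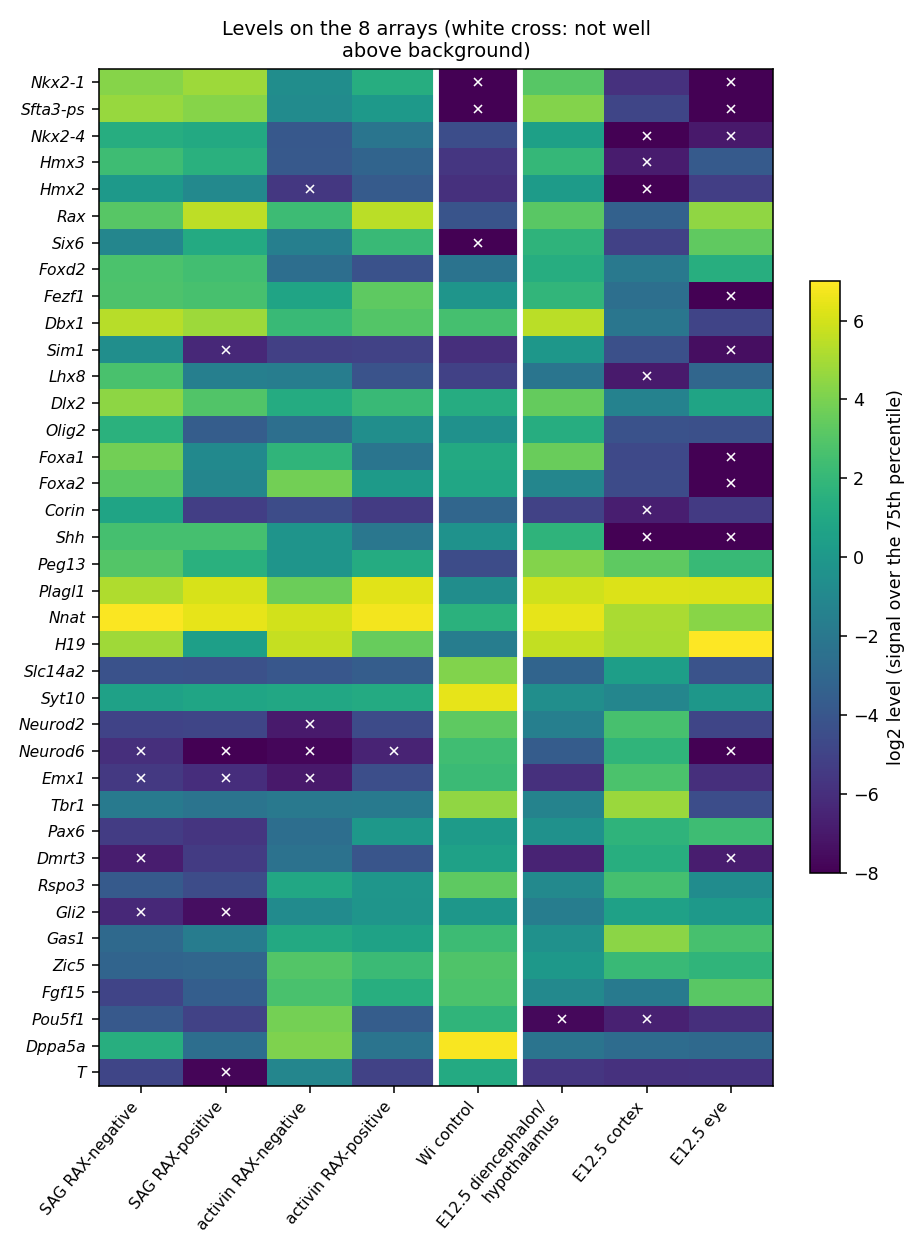
Log2 level of 38 named genes (rows) on the 8 arrays (columns), coloured from -8 to 7, with a white cross where the probe was not well above background. The homeobox genes at the top are bright in SAG RAX-negative cells and dark in the Wi control, the cortical genes further down are the reverse, and Slc14a2 and Syt10 are bright in the Wi control.

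Markers of the floor plate, the ventral midline that itself secretes Shh, formed the second group above the control. Of 15 detected, 11 were higher and 2 lower, with a median of 2.37. Shh had 2.56 in SAG RAX-negative cells and -0.34 in the Wi control, 7.48-fold higher. Corin, a protease of the floor plate, had 0.77 in SAG RAX-negative cells and -3.04 in the Wi control, 14.03-fold higher. Foxa1 and Foxa2, the forkhead factors of the midline and endoderm, were 6.54-fold and 5.18-fold higher, Ntn1, the axon guidance cue netrin, 6.28-fold and Spon1, the adhesion protein F-spondin, 6.41-fold. Foxd4 and Lmx1b were the 2 called lower, at -2.48 and -1.02.

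These midline genes differed between the sorted fractions of the SAG culture. Foxa2 had 3.24 in SAG RAX-negative cells, against -1.12 in SAG RAX-positive cells and 0.87 in the Wi control. Foxa1 had 3.80 in SAG RAX-negative cells, -0.91 in SAG RAX-positive cells and 1.09 in the Wi control. Corin had 0.77 in SAG RAX-negative cells, -5.20 in SAG RAX-positive cells and -3.04 in the Wi control. Shh, by contrast, had 2.56 in SAG RAX-negative and 2.55 in SAG RAX-positive cells, so its level did not separate the fractions. As each of these groups is 1 array, the differences between fractions were not tested.

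The direct feedback genes of the Hedgehog pathway were not above the control in SAG RAX-negative cells by their brightest probes. Gli1, a target and transducer, had 2.40 in SAG RAX-negative cells, 3.79 in SAG RAX-positive cells and 2.48 in the Wi control. Ptch1, the receptor that is also a target, had 0.38 in SAG RAX-negative cells, 1.77 in SAG RAX-positive cells and 1.07 in the Wi control. Hhip, the Hedgehog-binding antagonist, had 0.10 in SAG RAX-negative cells, 2.65 in SAG RAX-positive cells and 0.17 in the Wi control. The differences of SAG RAX-negative cells from the Wi control were -0.08, -0.69 and -0.07, none of them called, while those of SAG RAX-positive cells were 1.32, 0.70 and 2.48, and both sets of differences share the Wi control array. The 2 probes of Gli1 disagreed, with differences of -0.08 for the brighter and 2.11 for the other, and those of Ptch1 were -0.69 and 0.17.

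The list of Hedgehog targets and feedback genes as a whole had 18 detected, 6 higher and 1 lower, with a median of 0.73. The 6 higher were transcription factors: Foxa2, Foxd1, Foxf1, Foxf2, Foxl1 and Nkx6-1. Foxa2 is also on the floor plate list and Foxd1 on the hypothalamus list. Foxl1 differed by 4.26, against 1.72 in the authors' values and 1.26 with normexp background correction. Foxf1 differed by 2.33, 1.45 and 1.21 in the same order. Foxf2, a forkhead factor best known from mesenchyme, had -0.34 in SAG RAX-negative cells and -4.002 in the Wi control, 12.6-fold higher, and Nkx6-1, of ventral neural progenitors, was 2.24-fold higher.

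Components that transduce the signal split. Smo, the target of SAG, had 4.68 in SAG RAX-negative cells and 4.18 in the Wi control and was not called, and Sufu, a negative regulator, differed by 0.75. Gas1, Boc and Cdon, co-receptors that bind Hedgehog, were lower: Gas1 had -2.85 in SAG RAX-negative cells and 2.27 in the Wi control, 34.8-fold lower, Boc was 17.7-fold lower and Cdon 5.48-fold lower. The 3 probes of Gas1 did not give 1 size of difference, ranging from -5.12 for the brightest to -0.45. The median of its probes gave -0.73, within 2-fold, so a call for Gas1 depends on the probe. Gli2, the main activator, had -6.26 in SAG RAX-negative cells, not well above background, and -0.04 in the Wi control, at least 48.035-fold lower, and Gli3, the main repressor, was 3.82-fold lower. The log2 difference of Gli2 was -6.22, against -4.81 in the authors' values and -2.86 with normexp background correction. Shh, Hhat, the acyltransferase that palmitoylates the ligand, and Lrp2, an endocytic co-receptor, were the 3 higher of 16, against 5 lower. The 3 probes of Hhat ranged from -0.10 to 2.46 and those of Lrp2 from -0.02 to 1.81.

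**Figure D4:**
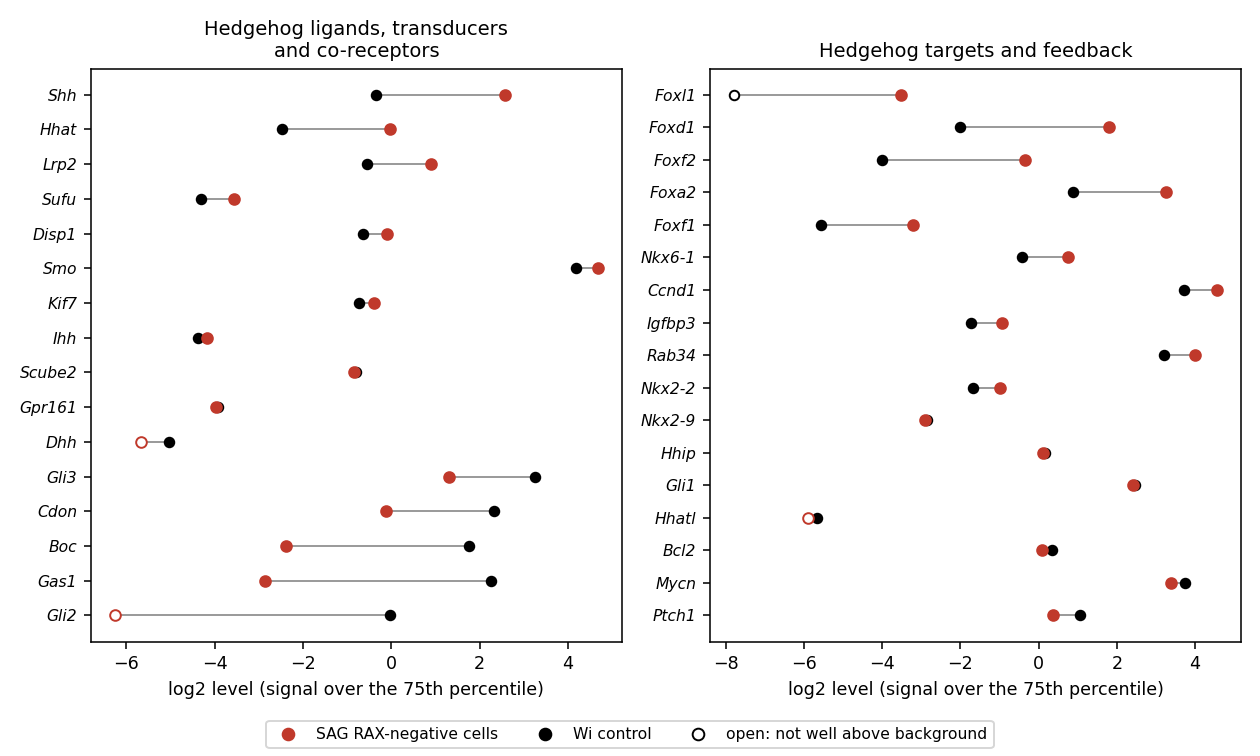
Log2 levels of detected Hedgehog pathway genes, with 1 target left out, in SAG RAX-negative cells (red) and the Wi control (black), ligands and transducers on the left and targets on the right, 1 array each, with open points where the probe was not well above background. Gli2, Gas1 and Boc have the longest lines to lower levels in SAG RAX-negative cells, while Gli1 and Hhip nearly coincide.

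The ventral telencephalon list had 13 higher and 3 lower of 26 detected, with a median of 1.05. Dlx2 and Dlx1, homeobox factors of GABAergic progenitors whose probes lie 10.1 kb apart on chromosome 2, had 4.47 and 2.87 in SAG RAX-negative cells, against 1.31 and -0.12 in the Wi control, and were 8.97-fold and 7.95-fold higher. Dlx5 was 5.16-fold, Gsx1, a factor of the ganglionic eminences, 4.11-fold and Olig2, of ventral and oligodendrocyte progenitors, 4.01-fold higher. Meis2, read in the raised area, was 14.5-fold lower. Several of these genes, Nkx2-1 and Lhx8 among them, stand in both the ventral telencephalon and the hypothalamus lists, and the Dlx genes are also expressed in the hypothalamus.

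Transmitter genes differed by class, with several of GABA and dopamine synthesis or transport above the control and the glutamate transporters below it. Slc32a1, the vesicular GABA transporter, had 4.49 in SAG RAX-negative cells and 2.56 in the Wi control, 3.80-fold higher, and Gad2, which makes GABA, was 3.47-fold higher, while Gad1 differed by 0.85 and was not called. The log2 difference of Slc32a1 was 1.93 for its brightest probe and 1.33 for the median of its probes. Ddc and Th, enzymes of dopamine synthesis, were 6.79-fold and 3.29-fold higher. Slc17a7, a vesicular glutamate transporter of cortical neurons, had -6.34, not well above background, in SAG RAX-negative cells and -1.87 in the Wi control, at least 13.5-fold lower, and Slc17a6 was 2.27-fold lower. The log2 difference of Slc17a7 was -4.47, against -2.93 in the authors' values and -1.38 with normexp background correction. Of the 19 transmitter genes detected, 9 were higher and 5 lower, with a median of 0.85 that was 0.03 in the authors' values and 0.19 without the raised area. The 5 lower included Tph1, of serotonin synthesis.

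Pan-neuronal genes as such hardly differed. Of 31 detected, 2 were higher and 5 lower, with a median of -0.17. Tubb3, the neuronal tubulin, had 5.28 in SAG RAX-negative cells and 5.54 in the Wi control, and Dcx, of migrating young neurons, 3.66 and 3.63 in the same order. Proneural and differentiation factors split, with 9 higher and 9 lower of 29. Neurog3, which is expressed in the developing hypothalamus, was 15.7-fold higher, at 2.54 in SAG RAX-negative cells and -1.43 in the Wi control. Onecut2 was 7.32-fold higher.

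Genes of the dorsal telencephalon and cortex were the group furthest below the control among regional lists. Of 32 detected, 20 were called lower and 1, Lhx5, higher, with a median of -2.08. Neurod6, a factor of cortical projection neurons, had -5.96, not well above background, in SAG RAX-negative cells and 2.37 in the Wi control, at least 255-fold lower. Neurod2, its relative, had -4.99 in SAG RAX-negative cells and 3.26 in the Wi control, 304-fold lower. Emx1, the homeobox marker of the pallium, had -5.49, not well above background, in SAG RAX-negative cells and 2.22 in the Wi control, at least 210-fold lower.

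Tbr1, of early cortical neurons, had -1.82 in SAG RAX-negative cells and 4.49 in the Wi control, 79.1-fold lower, and Dmrt3, of the medial pallium, was at least 74.6-fold lower. Eomes, of intermediate progenitors, was 12.8-fold lower and Reln, the secreted reelin of Cajal-Retzius cells, 8.99-fold lower. Nr2f1, also on the list, differed by 0.06 and was not called. The levels of Neurod6, Emx1 and Tbr1 in the Wi control were near those of the E12.5 cortex array, at 1.81, 2.75 and 4.75, and this likeness is a description of 1 array each.

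Genes of the Wnt target and antagonist list were mostly below the control, and both cultures had received the Wnt inhibitor. The list also counts the Wnt enhancer Rspo3, which had its lowest difference. Of 26 genes detected, 17 were lower and 1, Frzb, higher, with a median of -2.34. Without the raised area 14 of 24 were lower, with a median of -2.16. Rspo3, a secreted enhancer of Wnt signalling, had -3.78 in SAG RAX-negative cells and 3.28 in the Wi control, 133-fold lower. Rspo1 and Rspo2 were 17.3-fold and 8.08-fold lower. Sp5, a direct target, was 5.21-fold lower, Notum, a secreted Wnt deacylase, 4.94-fold lower and Lgr5, the R-spondin receptor, 5.73-fold lower by its brighter probe, with 0.60 for the other. Axin2, the feedback target, gave no settled direction: its brighter probe, in the raised area, differed by -1.78 and its other probe by 0.33.

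FGF pathway genes were lower in 8 of 22 and higher in 3, and dorsal factors were among the largest differences. Fgf15, a ligand of the forebrain and retina, had -4.90 in SAG RAX-negative cells and 2.77 in the Wi control, 203-fold lower. Etv5 and Etv4, targets of FGF signalling, were 10.1-fold and 7.82-fold lower. Zic5 and Zic2, zinc finger factors of the dorsal neural tube with probes 23.3 kb apart on chromosome 14, were 66.5-fold and at least 73.5-fold lower. Zic5 had -3.17 in SAG RAX-negative cells and 2.88 in the Wi control, and its 3 probes ranged from -6.80 to -6.05. Tfap2b, a factor of the neural crest and dorsal neurons, was 102-fold lower.

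Most genes of the posterior neural list and of the mesoderm and endoderm list were lower, while the mesenchyme and matrix lists given further on were not. In the midbrain, hindbrain and spinal cord list 14 of 25 were lower and 2 higher, with a median of -1.34. The median was -0.67 over the 15 genes above background on both arrays and -0.39 with normexp background correction. Pax3, of the dorsal neural tube and crest, had -5.61, not well above background, in SAG RAX-negative cells and -0.19 in the Wi control, at least 42.7-fold lower, and En2, of the midbrain-hindbrain boundary, was 13.4-fold lower. In the mesoderm and endoderm list 13 of 21 were lower and 4 higher. T, the mesoderm factor brachyury, had -4.85 in SAG RAX-negative cells and 1.18 in the Wi control, 65.6-fold lower from a spot in the raised area, Sox17, of endoderm and endothelium, at least 17.1-fold and Cldn6, an epithelial junction protein of early embryos, at least 52.7-fold lower. With normexp background correction the log2 differences of Pax3, Sox17 and Cldn6 were -2.73, -1.61 and -2.89, smaller changes than the at-least folds given.

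Pluripotency genes were mostly lower, and the list had the lowest median of all 40 lists. Of 25 detected, 18 were lower and 2 higher, with a median of -3.08. Pou5f1, which encodes Oct4, had -3.83 in SAG RAX-negative cells and 1.7999 in the Wi control, 49.6-fold lower. Dppa5a, an RNA-binding protein of ES cells, had 1.39 in SAG RAX-negative cells and 6.85 in the Wi control, 44.1-fold lower, and Utf1 was 24.9-fold lower. Nanog differed by 0.12 for its brightest probe, but its 3 probes ranged from -4.70 to 0.12. Lin28b and Trim71, repressors and partners of the let-7 pathway that are also active in early neural progenitors, were the 2 higher, at 8.37-fold and 2.28-fold, though the second probe of Trim71 differed by -0.60.

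Germ-cell and trophoblast genes moved both ways, with 6 higher and 9 lower of 19. Sycp3, a protein of the meiotic chromosome axis, had -4.92 in SAG RAX-negative cells and 2.07 in the Wi control, 127-fold lower. Plac1, a placental gene on the X chromosome, had 0.18 in SAG RAX-negative cells and -4.48 in the Wi control, 25.2-fold higher. Rhox6 and Rhox9, X-linked homeobox genes, were 21.4-fold and 14.4-fold higher. In SAG RAX-positive cells Plac1, Rhox6 and Rhox9 stood at -5.67, -3.18 and -2.27, and in activin RAX-negative cells at 0.31, 1.97 and 2.85.

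**Figure D5:**
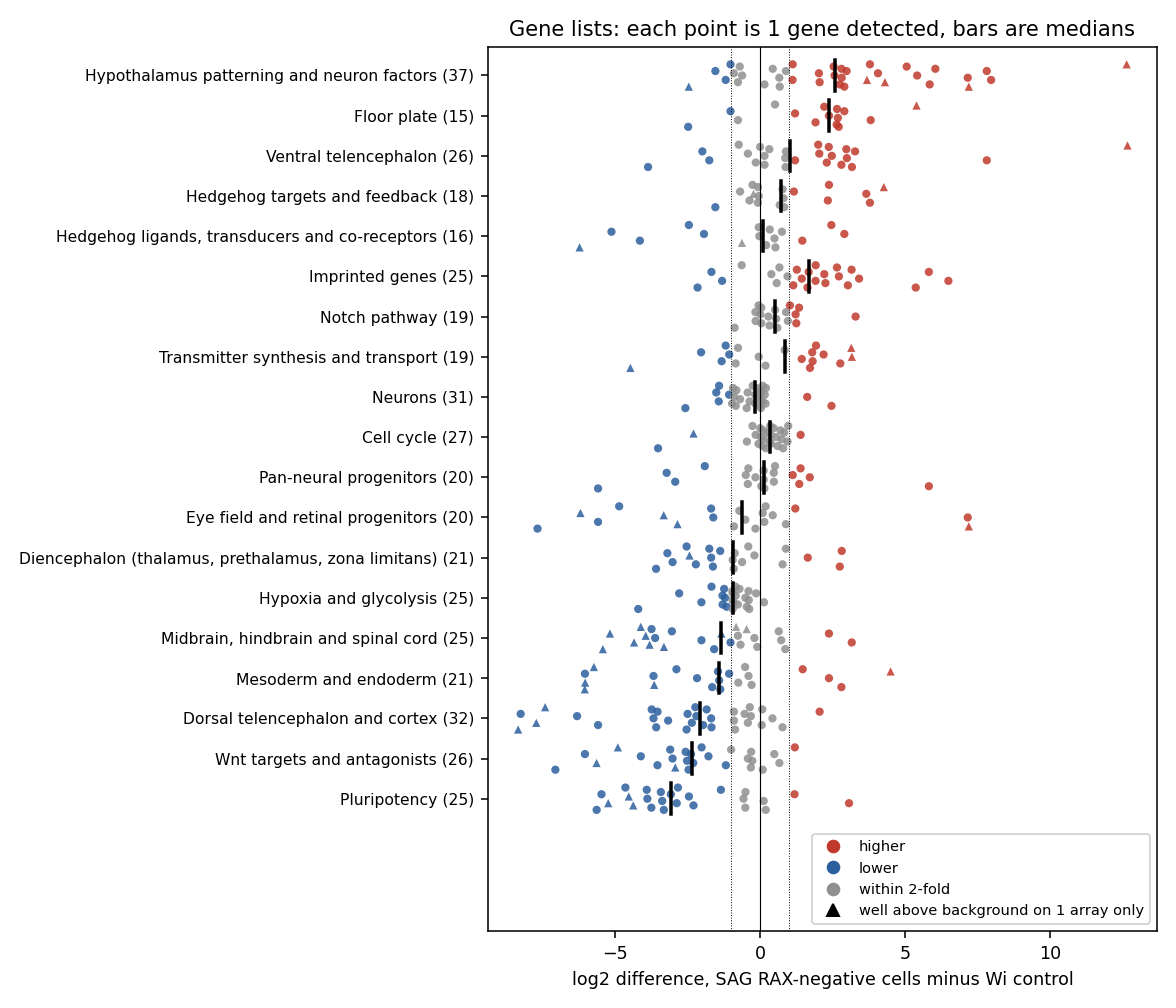
Log2 difference, SAG RAX-negative cells minus Wi control (horizontal axis), for each detected gene of 19 gene lists (rows, number detected in brackets), with a bar at the median of the list and dotted lines at a difference of 1 either way. The medians run from 2.57 for the hypothalamus list to -3.08 for the pluripotency list, and triangles are genes well above background on 1 array only.

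Imprinted genes, expressed from 1 parental allele, were the non-regional list with the most genes above the control. Of 25 detected, 17 were higher and 3 lower, with a median of 1.67. Plagl1, a zinc finger factor, had 5.19 in SAG RAX-negative cells and -0.62 in the Wi control, 56.3-fold higher for its brightest probe, while its 4 probes ranged from 0.03 to 6.05 with a median of 3.18. Nnat, neuronatin, had 6.93 in SAG RAX-negative cells and 1.56 in the Wi control, 41.1-fold higher. Peg13, a paternally expressed noncoding RNA named by the rule of size and not on the list, had 2.96 in SAG RAX-negative cells and -4.50 in the Wi control, 176-fold higher. Mest was 8.14-fold and Magel2 10.6-fold higher.

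H19, the maternally expressed noncoding RNA, had 4.87 in SAG RAX-negative cells and -1.62 in the Wi control, 89.8-fold higher for its brightest probe, while its 7 probes ranged from -0.09 to 6.49. Its neighbour Igf2, with a probe 78.2 kb away on chromosome 7, was 2.48-fold lower. Grb10 and Phlda2 were the other 2 lower.

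Nnat, Plagl1 and Peg13 were also above the Wi control on the other arrays of the K/l-EB5 line, but the imprinted list varied between them. The list had 18 higher and 3 lower of 26 detected in SAG RAX-positive cells, with a median of 2.08. In activin RAX-negative cells 10 were higher and 7 lower of 25, with a median of 0.59. Nnat had 6.45, 5.95 and 6.76 in the SAG RAX-positive, activin RAX-negative and activin RAX-positive cells and Plagl1 6.11, 3.60 and 6.30, against 1.56 and -0.62 in the Wi control. Peg13 had 1.51, -0.16 and 1.23 in those 3 groups. The Wi control was thus the lowest of the 8 arrays for Plagl1, Nnat and Peg13, and the part of the cell line in these differences was not tested.

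Genes with their highest level of the 8 arrays in the Wi control formed a counterpart. Slc14a2, a urea transporter, had -4.24 in SAG RAX-negative cells and 4.15 in the Wi control, 336-fold lower, with -4.29, -3.96 and -3.57 on the other 3 sorted arrays. Syt10, a synaptotagmin, had 0.61 in SAG RAX-negative cells and 6.44 in the Wi control, 56.8-fold lower, with 0.79, 1.00 and 1.16 on the other 3. Pla1a, Thrsp, Patl2 and Defa2 were also among the genes furthest below, at 70.3-fold, 68.3-fold, at least 170-fold and at least 59.3-fold. The second probe of Defa2 differed by 1.49, so its direction depends on the probe. Tnfsf10, the death ligand TRAIL, had -7.82, not well above background, in SAG RAX-negative cells and 2.64 in the Wi control, at least 306-fold lower. On the tissue arrays Slc14a2 reached 0.41 at most and Syt10 -0.07, and Tnfsf10 was well above background in eye alone, at -6.42. Dnah10, a dynein chain, ran the other way, with 0.18 in SAG RAX-negative cells from a spot in the raised area, 0.66, 0.28 and 0.27 on the other 3 sorted arrays and -5.73 in the Wi control. Its difference was 5.91 from that spot and 2.66 without it, and its 3 probes ranged from 0.75 to 5.91.

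Not every large difference was shared by all sorted cells. Sim1 had -0.58 in SAG RAX-negative cells, against -6.27, -5.15 and -5.06 in SAG RAX-positive, activin RAX-negative and activin RAX-positive cells and -5.99 in the Wi control, and -0.03 in E12.5 diencephalon/hypothalamus. Hmx3 and Nkx2-4 were high in both SAG fractions, at 2.35 and 1.36 in RAX-negative and 1.503 and 1.14 in RAX-positive cells, and low after activin, at -3.82 and -3.86 in RAX-negative and -3.17 and -2.17 in RAX-positive cells, against -5.61 and -4.48 in the Wi control. Fgf15, Zic5 and Gli2 were low in both SAG fractions and not after activin: Fgf15 had -4.90 and -3.54 in SAG RAX-negative and RAX-positive cells, 2.72 and 1.41 after activin and 2.77 in the Wi control. Zic5 had -3.17 and -3.03 in the SAG fractions, 2.96 and 2.20 after activin and 2.88 in the Wi control. Gli2 had -6.26 and -7.46 in the SAG fractions, -0.78 and -0.19 after activin and -0.04 in the Wi control.

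Set beside each other, the lists read as follows against the Wi control, an array that all 3 comparisons share. Of the hypothalamic factors, 24 were higher and 4 lower of 37 in SAG RAX-negative cells, 19 and 7 of 37 in SAG RAX-positive cells and 11 and 10 of 34 in activin RAX-negative cells. The floor plate list had 11 higher and 2 lower of 15 in SAG RAX-negative cells, 4 and 9 of 15 in SAG RAX-positive cells and 3 and 5 of 14 in activin RAX-negative cells. The cortex list had 1 higher and 20 lower of 32 in SAG RAX-negative cells and 0 and 24 of 32 in each of the other two. The background shares were 21.0% higher and 19.2% lower for SAG RAX-positive cells and 18.1% and 21.9% for activin RAX-negative cells.

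The neuron list separated the comparisons by counts: 2 higher and 5 lower of 31 in SAG RAX-negative cells, 1 and 20 of 31 in SAG RAX-positive cells and 2 and 26 of 31 in activin RAX-negative cells. Dcx had 3.66 in SAG RAX-negative cells, 1.24 in SAG RAX-positive cells, -0.42 in activin RAX-negative cells and 3.63 in the Wi control.

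Other signals were smaller or mixed. Of 19 Notch pathway genes detected, 5 were higher and 0 lower, with a median of 0.52: Heyl, a Notch target, was 9.78-fold higher and the ligands Dll1 and Dll3 2.34-fold and 2.54-fold higher, while Hes5, the main neural target, differed by 0.04. Of 23 activin and Nodal pathway genes, 10 were lower and 3 higher, with Lefty1 and Nodal 16.1-fold and 10.6-fold lower. In the retinoic acid list 4 of 15 were higher and 6 lower, with a median of 0.06, among the lower Cyp26b1, which degrades retinoic acid, at 23.8-fold. Of 27 cell-cycle genes 1 was higher and 2 lower, with a median of 0.34. Of 21 genes of cholesterol synthesis, a pathway needed for Hedgehog ligand and receptor function, 1 was higher and 0 lower, with a median of 0.01.

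Genes of hypoxia and glycolysis were lower in 9 of 25 and higher in 0, with a median of -0.94. Aldoc, an aldolase, had 2.98 in SAG RAX-negative cells and 7.18 in the Wi control, 18.4-fold lower, and Egln3, a hypoxia-induced prolyl hydroxylase, was 4.06-fold lower. Gapdh had 7.73 in SAG RAX-negative cells and 8.68 in the Wi control and was not called. Many of these genes are bright, and over all genes the brightest 10% had a median difference of -0.26. With quantile scaling that group had 0.05 and the list -0.49, so that part of the list's shift moves with the scaling.

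Markers of other cell types in the cultures were read alongside. In the neural crest and mesenchyme list 10 of 26 were higher and 4 lower, with a median of 0.07, and the matrix list had 9 of 29 higher and 4 lower: Col3a1, a fibrillar collagen of mesenchyme, had 2.84 in SAG RAX-negative cells, -3.88 in SAG RAX-positive cells and 0.53 in the Wi control, and Col5a2 was 21.0-fold higher. The summed signal of the mesenchyme list, in units of the 75th percentile, was 21.7 in SAG RAX-negative cells and 27.1 in the Wi control, that of endothelium and blood 4.15 and 12.2, and that of muscle 3.36 and 3.78 in the same order, with 200.9, 708 and 79.1 in E12.5 eye. The part of these cells in the differences above was not tested.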

How the data were processed

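Total RNA, 50 ng a group, was labelled with Cy3 and hybridised to 1-colour Agilent mouse arrays, 1 array a group. The software was Feature Extraction 10.7.3.1 per the file headers, while the submitters' processing notes name version 9.1 and limma. The deposited scanner tables hold an intensity for each spot that the authors' software had background-subtracted, on probes placed on mm9. The authors' deposited value table holds log2 values with a median of 6.37 on both arrays, and its normalization is not stated, though it correlated at 0.981 and 0.984 with the scaled signals of the SAG RAX-negative and Wi control arrays.

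Control spots and outlier flags were left out, the signal was divided by the 75th percentile of the array (986 units for SAG RAX-negative cells, 754 for the Wi control), spots of a probe were averaged, and for each of 34652 gene names the probe brightest on average across the 8 arrays was used. Of 55419 probes, 27927 were named by RefSeq accession and 27492 by the name in the files. Named genes were the 12 furthest from the control in each direction with both arrays well above background and the 8 in each direction with 1 array well above background, each past 2-fold, plus members of 40 gene lists. The groups, lists and rules were chosen with earlier results of these data known. The rule of size was tested on simulated arrays with the scanner's reading error alone and changes set above the threshold. That test left out dim genes, checks only the working of the rule and says nothing about the spread of cultures, lines or slides. The alternatives were other scalings, normexp background correction (limma 3.58.1 in R 4.3.3), the authors' values, the median of a gene's probes, other filters and thresholds, and leaving out spots of raised local background. Python 3.11.15 with numpy 2.4.6 and pandas 2.3.3 was used. A few list members are counted but not reported here by name. The number of arrays limits the precision.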

Additional observations from a re-analysis of the deposited data

Results flagged for a closer look

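On the SAG RAX-negative array, 3687 spots had a local background above 2 times the median of the array, a signal in a scanner column that the comparison itself does not use, and the Wi control array had 0 such spots. Genes read from those spots were called higher in 31.7% and lower in 10.97%, against 15.99% and 17.9% of genes read elsewhere. Of the 40 genes chosen by size, 11 were read there at least in part, and 7 of them had no other spot or probe.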

How the results depend on the processing

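The main counts were 4564 higher and 4604 lower. They were 1743 and 1728 at a log2 difference of at least 2, and 2294 and 2148 with normexp background correction, while the authors' values gave 2747 higher and 3995 lower and genes well above background on both arrays 2982 higher and 3220 lower. The cause of these shifts was not tested, apart from the stricter threshold and the smaller set of genes, which lower the counts by construction. Higher calls made up 49.8% of all calls, against 42.3% with median scaling and 40.7% in the authors' values. No paired analysis was possible because each group has 1 array. Of the named genes past 2-fold, 3 changed direction under 1 alternative each: Axin2 was 0.33 without the raised spots, Sim2 1.34 with the median of its probes and the dim Barhl2 0.29 with normexp. Among named genes within 2-fold, Nanog, Dcx, Hes5, Nr2f1 and Gli1 changed sign under at least 1 alternative. Sizes depended on the background handling: of 145 named genes, 72 moved by more than the scanner's reading error with normexp and 41 in the authors' values, the dim and at-least folds among them. With normexp the median of the eye field list was -0.08, that of mesoderm and endoderm -0.49 and that of Wnt targets -1.43, while the median of a gene's probes gave 1.86 for the ventral telencephalon and the authors' values 0.32 for hypothalamic hormones. Line, sort, factor and slide cannot be told apart, the reading error is not a replicate error, and dim genes are limited by the signal over background.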
